A study of Mus musculus with 12 samples.

Results

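The 9 genes of the interferon pathway described here were followed across mouse embryonic stem cells (ESC) and neural progenitor cells (NPC) with and without knockdown of the histone demethylase gene Jarid1b. They were the effectors Gbp2, Oasl2, Bst2 and Isg15, the sensor Ifih1, the signal transducers Stat2 and Irf9, and the transcription factors Irf1 and Irf7. A gene was measured where a probe set carried its symbol alone, and the probe set with the highest mean stood for it. This held for 8 of the 9 genes, out of 18784 genes on the arrays. The expression of Isg15 was not analysed here.

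The genes were selected on measured values of these arrays, namely lower Gbp2 and Oasl2 and higher Stat2 in knockdown ESC than in control ESC, so every difference between knockdown and control ESC below is a description with no test. The tests are on knockdown against control NPC, whose arrays played no part in the choice, and on NPC against ESC averaged over both shRNAs. The second uses the same ESC arrays as the choice, though as the mean of knockdown and control cells and not as their difference.

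The 12 arrays fell into 4 groups of 3. Knockdown NPC and control NPC were derived in culture from ESC, and knockdown ESC and control ESC were the stem cells themselves. All came from the feeder-independent line E14TG2a.4, whose ESC were kept in serum and LIF, had taken up a lentiviral LKO vector and were selected with puromycin. The knockdown cells carried an shRNA against Jarid1b and the control cells a scrambled shRNA, so all 4 groups had been through lentiviral transduction. Only 1 Jarid1b shRNA is named, and replicates are not labelled as separate cultures. A p-value here therefore covers the spread among the arrays alone, part or all of which may be technical.

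Interferons are cytokines that cells release on sensing viral nucleic acid. Type I interferon acts through a receptor, the kinases Jak1 and Tyk2, and a complex holding Stat2 and Irf9 that binds the interferon-stimulated response element in the promoters of antiviral genes, whereas type II interferon acts on the gamma-activated site. Pluripotent stem cells are known to respond weakly to interferon while holding some antiviral genes, the Ifitm genes among them, at a high resting level.

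Values are log2 expression, 1 per gene and array. Array medians were 7.70 to 7.79 and lower quartiles 5.84 to 6.11; a gene at or below the lower quartiles cannot be told from an absent one, since the values come with no detection calls. The lowest correlation between arrays of a group was 0.992. Kdm5b, the current symbol of Jarid1b, averaged 10.47 ± 0.081 in knockdown NPC against 11.23 ± 0.078 in control NPC (SD, n = 3 each), and 10.68 ± 0.20 in knockdown ESC against 12.41 ± 0.14 in control ESC (SD, n = 3 each). Neural markers averaged 10.41 to 10.68 on NPC arrays and 7.53 to 7.98 on ESC arrays over 9 genes, and pluripotency markers 6.71 to 8.58 on NPC arrays and 12.23 to 12.37 on ESC arrays over 10 genes.

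The promoters of the 3 genes whose values made the choice are shown to set their response elements side by side. Each line gives 250 bases before to 50 bases after the RefSeq start of the gene, 5′ to 3′ on the gene's strand, from the GRCm38.p6 build. Capitals mark the core of the interferon-stimulated response element, read on either strand: GAAA, any 2 bases, then GAAA. The windows are chr3:142620413-142620712 on the plus strand for Gbp2, chr5:114896684-114896983 on the plus strand for Oasl2 and chr10:128270248-128270547 on the plus strand for Stat2.
Gbp2: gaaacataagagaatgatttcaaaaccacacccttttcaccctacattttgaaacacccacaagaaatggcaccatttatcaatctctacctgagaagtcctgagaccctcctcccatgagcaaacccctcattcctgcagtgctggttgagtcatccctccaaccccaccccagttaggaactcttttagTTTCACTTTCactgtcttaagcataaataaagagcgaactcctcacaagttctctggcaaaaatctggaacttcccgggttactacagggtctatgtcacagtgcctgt
Oasl2: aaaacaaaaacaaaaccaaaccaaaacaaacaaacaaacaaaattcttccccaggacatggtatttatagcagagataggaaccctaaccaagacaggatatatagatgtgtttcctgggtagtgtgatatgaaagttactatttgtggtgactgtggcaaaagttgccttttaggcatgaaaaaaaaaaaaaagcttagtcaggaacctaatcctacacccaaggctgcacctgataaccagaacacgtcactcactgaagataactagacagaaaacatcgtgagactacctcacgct
Stat2: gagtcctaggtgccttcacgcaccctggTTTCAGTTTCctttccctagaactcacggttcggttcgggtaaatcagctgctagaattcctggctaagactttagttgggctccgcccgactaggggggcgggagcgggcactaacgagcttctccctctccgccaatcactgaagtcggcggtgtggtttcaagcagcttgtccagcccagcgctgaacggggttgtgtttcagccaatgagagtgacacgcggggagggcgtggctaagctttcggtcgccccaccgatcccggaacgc

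The Gbp2 window held 1 core, on the opposite strand at bases -59 to -50 from the start, and the Stat2 window 1 core, on the opposite strand at -222 to -213. The Oasl2 window held no match, which says only that these letters are not in these 300 bases. Of the other genes, Bst2 had 2 overlapping cores between -130 and -115, Ifih1 had 1 core at 33 to 42 past the start, and Isg15 had 3 overlapping cores between -78 and -57. The gamma-activated site TTCNNNGAA, which reads the same on both strands, matched at -90 to -82 in 1 of the 2 Irf1 windows and at -136 to -128 in Bst2, where it overlaps a response element core. Neither motif matched the windows of Irf7 or Irf9. The core matched in 3.44% and the gamma-activated site in 8.3% of 32851 promoter windows of this length. A match is a description of sequence and not a measured binding site.

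Gbp2, a GTPase that attacks the vacuoles of intracellular pathogens, was high in control ESC alone and lay near the arrays' lower quartiles in the other 3 groups. Oasl2, a relative of the oligoadenylate synthetases, was also highest in control ESC. Stat2 was highest in knockdown ESC. In NPC, none of the 8 genes passed the test between knockdown and control cells. Between the cell states, Stat2, Irf9, Irf1 and Bst2 were lower in NPC and Ifih1 was slightly higher. Gbp2 was lower in NPC on average over both shRNAs. Its difference was -2.69 in control cells and -0.04 in knockdown cells, where both means lay near the lower quartiles.

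Gbp2 (Entrez gene 14469) had values of 6.24, 5.96 and 5.87 in knockdown NPC, against 5.27, 6.53 and 6.02 in control NPC. Its ESC values were 7.20, 5.94 and 5.06 in knockdown cells, against 8.86, 7.90 and 9.13 in control cells. All 3 control ESC arrays lay above the other 9 arrays, and knockdown ESC replicate 1 stood between them and the rest. The ESC difference was -2.56, at best a lower bound on its size because the knockdown mean of 6.07 lay within the range of the lower quartiles, and it ranged from -3.13 to -2.06 when single ESC arrays were left out. The SD within knockdown ESC was 1.1, larger than that of any other measured member in any group.

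Oasl2 had 7.38, 7.04 and 6.70 in knockdown NPC, against 6.64, 6.97 and 6.60 in control NPC. In ESC it had 6.70, 6.89 and 6.46 in knockdown cells, against 7.68, 7.27 and 7.91 in control cells. Knockdown and control ESC did not overlap, whereas the NPC groups did. The ESC difference was -0.94, or 1.92-fold lower in knockdown cells. The 3 lower groups, knockdown NPC, control NPC and knockdown ESC, overlapped one another.

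Bst2, which encodes tetherin and holds budding virus particles at the cell surface, had 7.93, 7.75 and 7.66 in knockdown NPC, against 7.64, 7.65 and 7.37 in control NPC. The stem cells had 8.37, 8.46 and 8.15 in knockdown cells, against 8.46, 8.64 and 8.40 in control cells. Every NPC array lay below every ESC array. The knockdown and control arrays overlapped in ESC, where the difference was -0.18.

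Ifih1 encodes MDA5, a cytosolic sensor of long double-stranded RNA. It had 6.18, 5.94 and 5.98 in knockdown NPC, against 5.85, 5.76 and 5.70 in control NPC. In ESC the values were 5.52, 5.71 and 5.57 in knockdown cells, against 5.91, 5.51 and 5.77 in control cells, with a difference of -0.13. All 4 group means lay under the highest lower quartile of the arrays, so the size of any change in Ifih1 is rough.

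Stat2, the transducer particular to type I and type III interferon signalling, had 8.39, 8.31 and 8.21 in knockdown NPC, against 8.11, 8.59 and 7.94 in control NPC. For ESC they were 9.62, 9.75 and 9.98 in knockdown cells, against 9.16, 9.05 and 8.95 in control cells. The 4 groups ran from knockdown ESC through control ESC to the NPC, and the NPC groups overlapped. The ESC difference was 0.73, or 1.66-fold higher in knockdown cells.

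Irf9, the DNA-binding partner of Stat2, had 8.05, 7.65 and 7.88 in knockdown NPC, against 7.58, 8.80 and 7.90 in control NPC. The ESC arrays gave 9.09, 9.14 and 9.17 in knockdown cells, against 9.0, 9.08 and 8.78 in control cells. Control NPC replicate 2 lay within the range of the control ESC arrays, and the other 5 NPC arrays below them. The ESC difference was 0.18, without overlap.

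Irf1, a transcription factor induced by type II interferon, had 8.06, 7.77 and 7.72 in knockdown NPC, against 7.46, 7.47 and 7.79 in control NPC. In ESC it had 9.08, 8.90 and 9.02 in knockdown cells, against 9.47, 9.12 and 9.38 in control cells. Every NPC array lay below every ESC array. The ESC difference was -0.32, without overlap.

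Irf7, the factor that amplifies type I interferon production, stayed near the floor of the arrays. It had 5.98, 6.0 and 6.0 in knockdown NPC, against 5.85, 5.84 and 5.66 in control NPC. In ESC the gene had 5.85, 6.03 and 5.73 in knockdown cells, against 5.83, 5.68 and 5.70 in control cells, with a difference of 0.13. All 4 of its group means lay under the highest lower quartile of the arrays.

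In ESC, 5 of the 8 genes thus did not overlap between knockdown and control, 2 of them higher and 3 lower, where 24.2% of all genes did not overlap, 10.6% higher and 13.6% lower. An adjusted p under 0.05 from the fit described next was reached by 5.21% of all genes in ESC, 1.84% higher and 3.37% lower, and an unadjusted one by 19.2%. Nothing is read from these counts, because the ESC difference chose the genes.

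**Figure D1:**
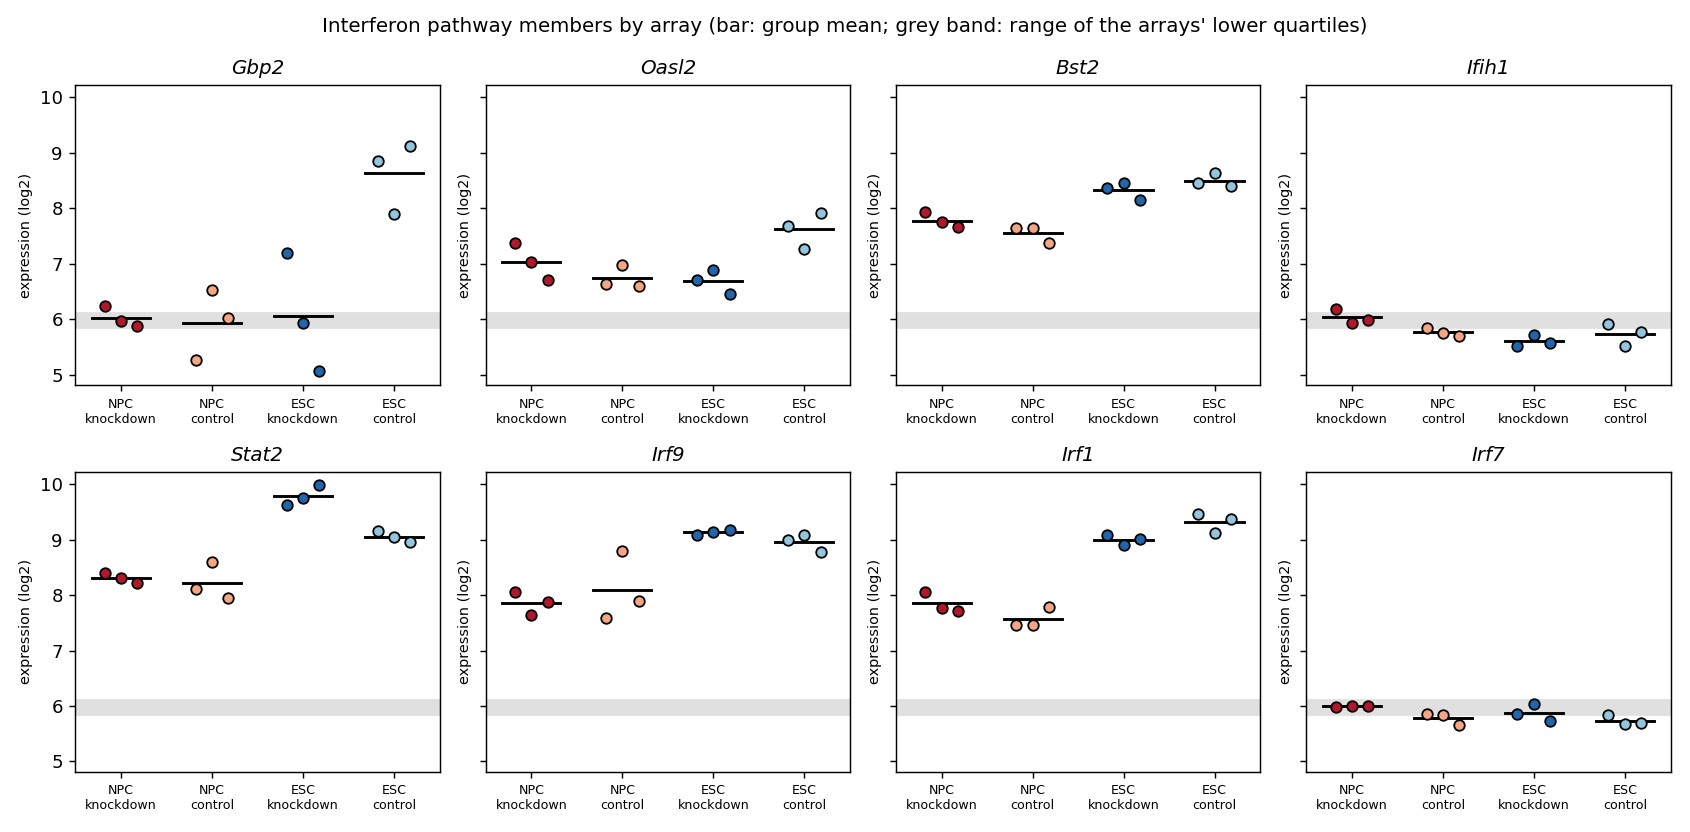
Expression (log2, vertical axis) of the 8 measured genes on each of the 12 arrays, with groups along the horizontal axis, a bar at each group mean and a grey band from 5.84 to 6.11 for the range of the arrays' lower quartiles. Gbp2 leaves the band by its group mean only in control ESC (8.63), Stat2 is highest in knockdown ESC (9.79), and the group means of Ifih1 and Irf7 stay in or below the band.

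The question in NPC was whether the knockdown moved the same genes after differentiation. A group-means model was fitted with limma to all 12 arrays, and p-values were adjusted by the Benjamini-Hochberg method over 18784 genes; rose and fell are used where this adjusted p was under 0.05. All tests were two-sided. By limma's test 0 of the 8 genes rose or fell in knockdown NPC, where 1.03% of all genes did, 0.82% rising and 0.213% falling. At an unadjusted p under 0.05 there were 2, Irf7 and Ifih1, where 9.52% of all genes had one. No alternative setting called any of the 8. Kdm5b itself differed by -0.76 between knockdown and control NPC, a smaller drop than the -1.72 in ESC. The part of this in the NPC result was not tested.

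Gbp2 averaged 6.02 ± 0.19 in knockdown NPC and 5.94 ± 0.63 in control NPC (SD, n = 3 each), a difference of 0.09 ± 0.46 (SE, limma adjusted p = 0.988). The 95% interval of this difference ran from -0.91 to 1.10. Both means lay within the range of the arrays' lower quartiles, so a fall of Gbp2 in NPC could not have been seen. Its sign turned to -0.25 without control NPC replicate 1 and to -0.02 without knockdown NPC replicate 1. Oasl2 differed by 0.30 ± 0.19 (SE, limma adjusted p = 0.757) and its interval ran from -0.12 to 0.72. Stat2 differed by 0.09 ± 0.15 (SE, limma adjusted p = 0.959) with an interval from -0.24 to 0.41, and the sign turned without control NPC replicate 3 (-0.05).

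Irf1, Irf7, Ifih1 and Bst2 had differences of 0.27 ± 0.13, 0.21 ± 0.094, 0.26 ± 0.11 and 0.23 ± 0.12 (SE, limma adjusted p = 0.544, 0.506, 0.443 and 0.617). The knockdown arrays of Irf7, Ifih1 and Bst2 lay above all control NPC arrays, so 3 of 8 genes were higher and 0 lower without overlap, where 14.2% of all genes had none, 8.3% higher and 5.91% lower. Irf9 had the only negative difference, -0.23 ± 0.23 (SE, limma adjusted p = 0.903). That sign came from control NPC replicate 2: without this array the difference was 0.12. The same array had the highest control NPC value of 5 of the 8 genes, Gbp2, Oasl2, Stat2 and Irf9 among them, where it had that of 33.8% of all genes. In knockdown NPC, replicate 1 was highest for 7 of the 8, where it was for 31.3% of all genes. Among 107 other genes of the pathway, control NPC replicate 2 was highest for 38.3% and knockdown NPC replicate 1 for 43%.

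Markers of other cells moved between the NPC groups as well. Of the pluripotency markers 5 of 10 rose in knockdown NPC, where their mean per array was 7.62 to 8.58, against 6.71 to 7.31 in control NPC. Of the endothelial markers 5 of 10 fell, with means of 6.53 to 6.87 in knockdown NPC against 7.32 to 8.18 in control NPC. Of the fibroblast and mesenchyme markers 0 of 10 passed, with means of 7.23 to 7.48 against 7.62 to 8.02 in control NPC. Blood and microglia markers were at 5.75 to 5.89 in knockdown NPC and 5.69 to 5.87 in control NPC, 0 of 9 passed, and the leukocyte antigen gene Ptprc was below the lower quartiles of all arrays at 4.94 and 4.96. Marker means differed between the ESC groups too. Neural markers averaged 7.53 to 7.67 in knockdown ESC and 7.77 to 7.98 in control ESC. Pluripotency markers averaged 12.33 to 12.37 in knockdown ESC and 12.23 to 12.31 in control ESC, and the ranges of the other lists overlapped. Fewer cells of a type and less RNA per cell cannot be told apart in such bulk samples. The part of these cells in the values of the interferon pathway genes was not tested.

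**Figure D2:**
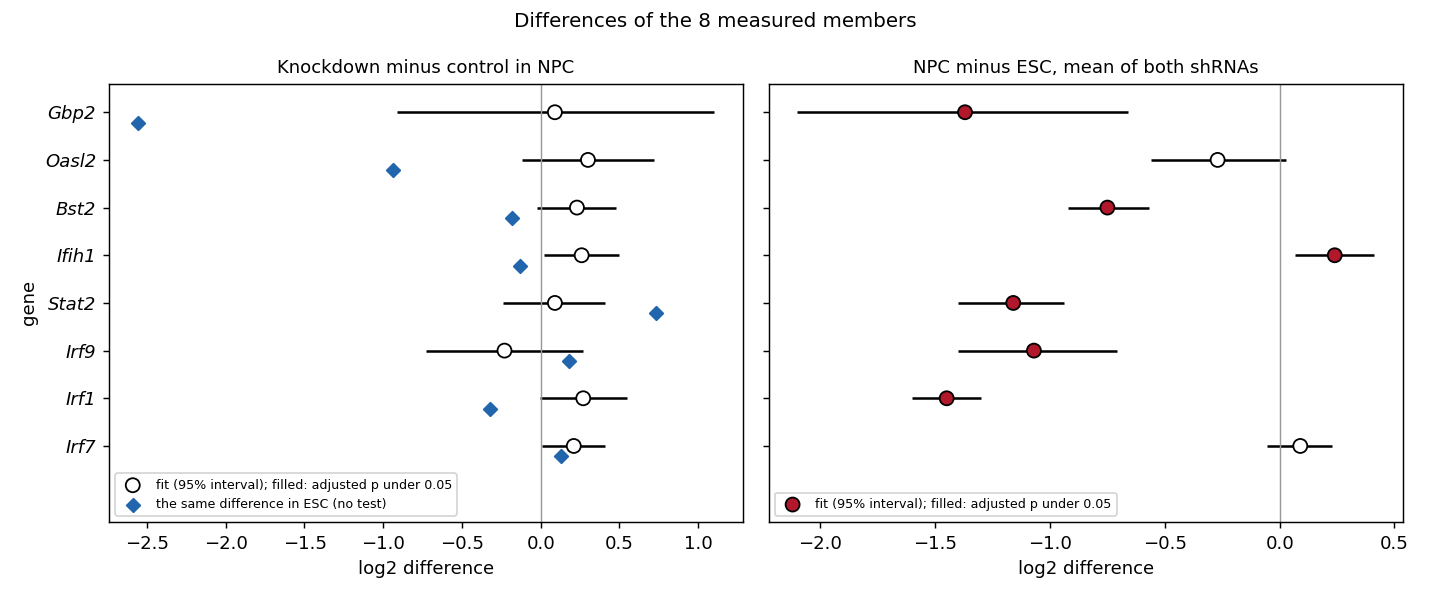
Log2 differences (horizontal axis) of the 8 genes between knockdown and control NPC (left) and between NPC and ESC averaged over both shRNAs (right), with limma's 95% intervals; filled points passed at an adjusted p under 0.05, and diamonds show the ESC difference, which was not tested. No point is filled on the left, and 6 of 8 are filled on the right.

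Between the cell states, 6 of the 8 genes passed limma's test, 5 lower and 1 higher in NPC, where 58.4% of all genes passed, 27.3% higher and 31.1% lower. The same 6 had an unadjusted p under 0.05, as did 62.1% of all genes. Irf1 had the most certain difference, -1.45 ± 0.091 (SE, 2.73-fold lower in NPC, limma adjusted p = 9.77e-09), and it was -1.15 in knockdown and -1.75 in control cells. Stat2 was lower by a log2 difference of -1.16 ± 0.10 (SE, 2.24-fold, limma adjusted p = 3.91e-07), and Irf9 by -1.07 ± 0.16 (SE, 2.09-fold, limma adjusted p = 6.68e-05). The Stat2 difference was -1.49 in knockdown and -0.84 in control cells. Its average is not free of the choice of the genes, since it includes the high knockdown ESC values. Bst2 was lower by -0.75 ± 0.082 (SE, 1.68-fold, limma adjusted p = 2.8e-06). Irf1, Stat2 and Bst2 had no overlap between the 6 NPC and the 6 ESC arrays, where 39.5% of all genes had none, 19.6% higher and 19.9% lower.

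Gbp2 averaged a difference of -1.37 ± 0.33 (SE, limma adjusted p = 0.00258) over both shRNAs. This call is not free of the choice of the genes, since it rests on the high control ESC values that also made the ESC difference. The difference between control NPC and control ESC was -2.69, which is at best a lower bound because the NPC mean was at the floor. Knockdown NPC (6.02) and knockdown ESC (6.07) were both at the floor, so no state difference could be read in knockdown cells. Oasl2 had differences of opposite sign, 0.35 in knockdown and -0.88 in control cells, and the average of -0.27 ± 0.14 (SE, limma adjusted p = 0.112) did not pass. It passed without knockdown NPC replicate 1 (adjusted p = 0.0369), without control ESC replicate 2 (0.0334) and with array weights (0.0285). These passes include the high control ESC values of Oasl2, which also entered the choice of the genes. Ifih1 was higher in NPC by 0.24 ± 0.078 (SE, limma adjusted p = 0.0193), a call lost without knockdown NPC replicate 1 (0.0537) and with the replicate number within each shRNA as a block (0.0672). Irf7 differed by 0.09 ± 0.067 (SE, limma adjusted p = 0.265), and it passed at 0.17 when the arrays were quantile normalized again (0.0116).

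The gene whose pattern over the 12 arrays was most like that of Gbp2 was Gbp2b, a guanylate-binding protein gene next to it in RefSeq gene order. Likeness was the root mean square difference between log2 values after each gene's own mean was subtracted, and it was 0.46 for Gbp2b, beside an SD of 1.33 for Gbp2 itself. Gbp2b had 5.75, 5.64 and 5.77 in knockdown NPC, against 5.45, 6.07 and 5.77 in control NPC. Its ESC values were 6.39, 5.64 and 5.53 in knockdown cells, against 7.80, 7.02 and 8.0 in control cells. Within control ESC both genes were lowest on replicate 2, within control NPC both were highest on replicate 2, and within knockdown ESC both were highest on replicate 1. Within knockdown NPC they differed, Gbp2 being highest on replicate 1 and Gbp2b on replicate 3. Gbp2b was picked for its likeness on these same arrays, so a shared order is a description only. Outside control ESC its group means were 5.85 in knockdown ESC, 5.72 in knockdown NPC and 5.76 in control NPC, near or below the lower quartiles. Guanylate-binding protein genes are close copies of one another, probe sequences were not used here, and shared hybridisation between the pair was not tested.

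The next most alike genes were Tagln at 0.64, Anxa3 at 0.68 and Car2 at 0.69, all highest in control ESC (9.06, 8.10 and 11.17). Tagln was lowest on replicate 2 within control ESC and highest on replicate 2 within control NPC. It was highest on replicate 1 within both knockdown groups. Gbp2 was lowest or highest on the same replicate in each of these groups, so such sharing was not particular to Gbp2b. The full order of the replicates differed between Gbp2 and Tagln within control ESC and within knockdown NPC. For Oasl2, with an SD of 0.46, they were Gsap at 0.21, Tapbp at 0.22, and Cnn1 and Papss2 at 0.23. Tapbp encodes tapasin, which loads peptides onto MHC class I, and averaged 9.79 in knockdown NPC, 9.57 in control NPC, 9.24 in knockdown ESC and 9.98 in control ESC. For Stat2, with an SD of 0.69, they were Atp1b1 and Rlbp1 at 0.15 and Pla2g2e and Fat2 at 0.16. Atp1b1, a subunit gene of the sodium pump, averaged 10.58 in knockdown NPC, 10.57 in control NPC, 12.10 in knockdown ESC and 11.59 in control ESC.

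**Figure D3:**
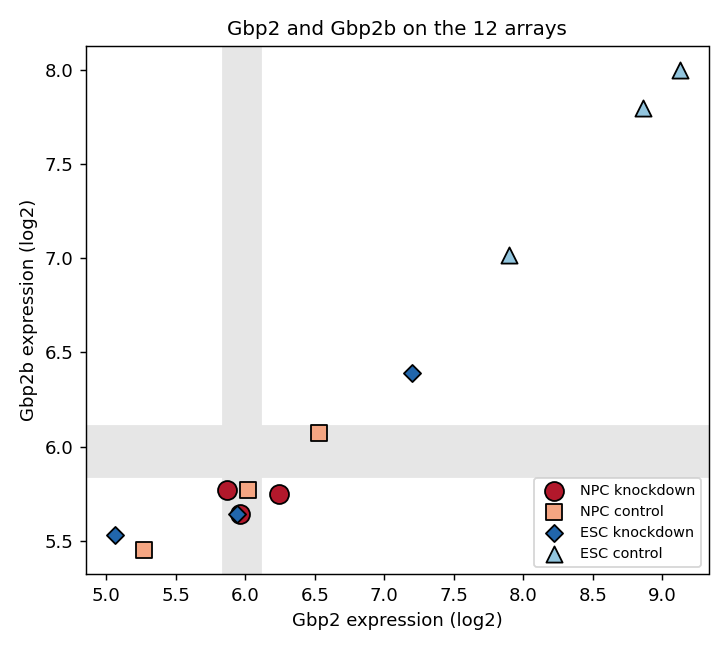
Gbp2b expression (log2, vertical axis) against Gbp2 expression (log2, horizontal axis) on the 12 arrays, 1 point per array, with grey bands from 5.84 to 6.11 for the arrays' lower quartiles. The 3 control ESC arrays lie at the upper right, with Gbp2 from 7.90 to 9.13, followed by knockdown ESC replicate 1 at 7.20.

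The wider pathway was set beside these genes in 8 lists by role, with 131 entries of which 115 were measured. The 115 include the 8 genes described above, and 107 remain without them. In knockdown NPC, 4 of the 115 genes rose and 0 fell by limma's test, where 1.03% of all genes passed. At an unadjusted p under 0.05 there were 21, where 9.52% of all genes had one. The median difference over the lists was 0.027, beside 0.004 over all genes.

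Nucleic acid sensors and adaptors held 2 of these, among 15 measured. Trim25, a ubiquitin ligase that acts on the RNA sensor RIG-I, had 9.09, 8.66 and 8.66 in knockdown NPC, against 7.91, 7.97 and 8.34 in control NPC. It rose by 0.73 ± 0.13 (SE, limma adjusted p = 0.0214). Myd88, the adaptor of most Toll-like receptors, had 8.38, 8.10 and 8.09 in knockdown NPC, against 7.70, 7.6 and 7.68 in control NPC. It rose by 0.53 ± 0.092 (SE, limma adjusted p = 0.0143).

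The antiviral effector list held the other 2, among 31 measured. Dtx3l and Parp9, which encode a ubiquitin ligase and its ADP-ribosyltransferase partner, are neighbours in RefSeq gene order. Dtx3l had 8.18, 7.71 and 8.13 in knockdown NPC, against 7.40, 7.01 and 7.39 in control NPC, a rise of 0.74 ± 0.16 (SE, limma adjusted p = 0.0451). Parp9 had 7.42, 7.31 and 7.17 in knockdown NPC, against 6.62, 6.64 and 6.85 in control NPC, a rise of 0.60 ± 0.11 (SE, limma adjusted p = 0.0212). In all 4 genes the knockdown arrays lay above all control NPC arrays. This describes the same arrays that gave the calls and adds no support to them.

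All 4 were also lower in NPC than in ESC, by 2.71 for Trim25, 0.56 for Myd88, 1.77 for Dtx3l and 0.92 for Parp9 on the log2 scale, and pluripotency markers were higher in knockdown NPC as given above; the part of pluripotent cells in these rises was not tested. Without knockdown NPC replicate 1, without control NPC replicate 2, or in a fit of the 6 NPC arrays alone, 0 of the 115 genes passed, and the adjusted p of these 4 was 0.0648 to 0.212 in the first case and 0.0593 to 0.165 in the second. Dtx3l was the least firm: its call was lost in 15 of 22 alternatives. The others lost theirs in fewer, 6 for Parp9, 5 for Trim25 and 4 for Myd88.

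No gene of the other 6 lists passed in NPC. The MHC class I and antigen processing list had a median difference of 0.216 over 11 genes, beside 0.004 over all genes, and 5 of the 11 were higher without overlap, where 8.3% of all genes were. Those with the smallest p were the peptide transporter gene Tap1 at 0.51 ± 0.14, the class I heavy chain gene H2-K1 at 0.53 ± 0.15 and Tap2 at 0.37 ± 0.11 (SE, limma adjusted p = 0.143, 0.153 and 0.180). Among the interferon-inducible GTPases Gbp7 differed by 0.49 ± 0.14 (SE, limma adjusted p = 0.137), and the median over 15 genes was 0.042. The ligands (19 genes), receptors (6), Jak-Stat genes (11) and regulatory factors (8) had medians of -0.017, -0.042, 0.043 and 0.001. The lowest difference of all lists was that of Ifitm3 (-0.92, limma adjusted p = 0.158), named after its value was seen.

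**Figure D4:**
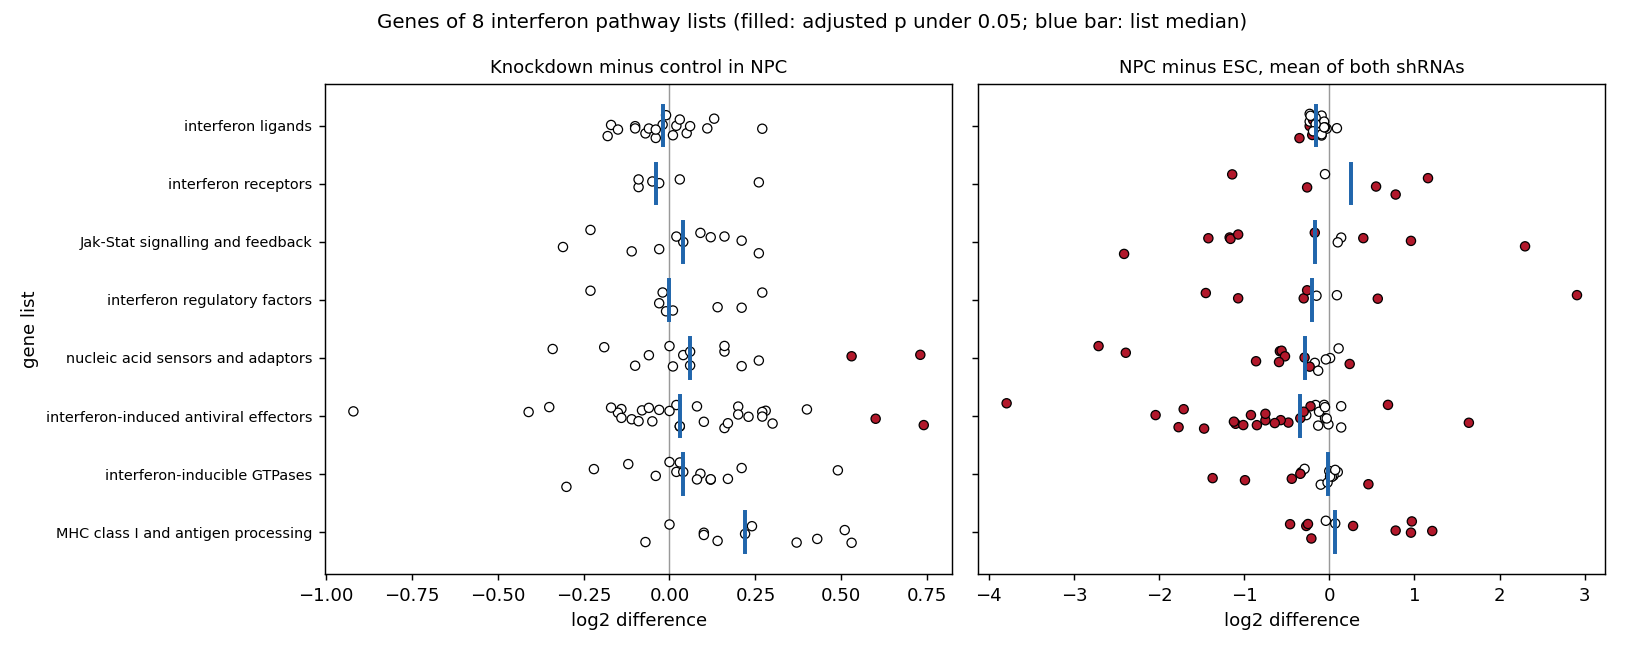
Log2 differences (horizontal axis) of the genes of 8 interferon pathway lists (vertical axis) between knockdown and control NPC (left) and between NPC and ESC averaged over both shRNAs (right); filled points passed at an adjusted p under 0.05 and blue bars are list medians. On the left 4 genes are filled, all higher; on the right filled genes lie on both sides of 0.

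**Figure D5:**
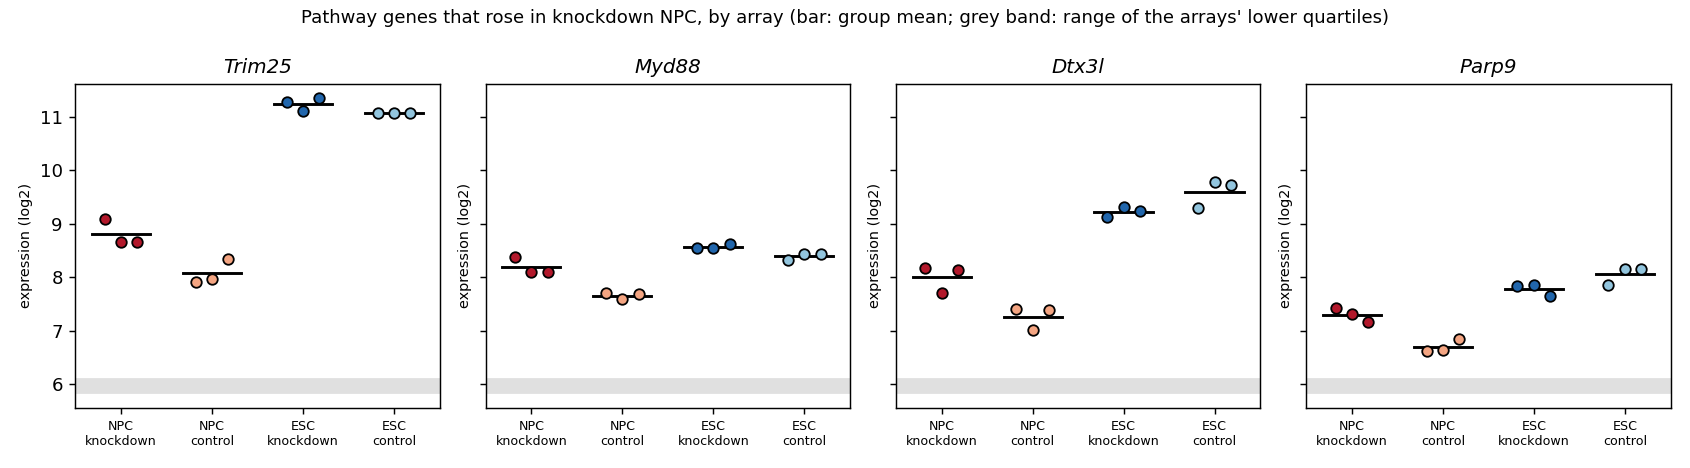
Expression (log2, vertical axis) of Trim25, Myd88, Dtx3l and Parp9 on each array, by group, with a bar at each group mean and a grey band from 5.84 to 6.11 for the arrays' lower quartiles. Knockdown NPC arrays lie above control NPC arrays in all 4 panels, and the ESC arrays lie above both NPC groups except for Myd88, where knockdown NPC replicate 1 (8.38) passes control ESC replicate 1 (8.32).

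Between the cell states, 17 of the 115 genes were higher and 51 lower in NPC by limma's test, where 27.3% and 31.1% of all genes were. Without the 8 genes described above, 16 of 107 were higher and 46 lower. The list median was -0.167, beside -0.059 over all genes. Antiviral effectors had 2 higher and 18 lower of 31. Ifitm1, which blocks entry of enveloped viruses, averaged 9.39 in knockdown NPC and 9.56 in control NPC, against 13.41 in knockdown ESC and 13.12 in control ESC, and was 13.8-fold lower in NPC (limma adjusted p = 4.66e-10). Dtx3l was 3.41-fold lower in NPC. Parp14 was lower too (-1.47, limma adjusted p = 5.85e-09), with NPC means of 5.95 in knockdown and 5.68 in control cells at the floor, so that this size is at best a lower bound. Ube2l6, which conjugates Isg15, was the gene with the largest rise in that list (1.64, limma adjusted p = 6.1e-07), named after its value was seen.

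Sensors and adaptors had 1 higher and 9 lower of 15. Trim25 was 6.55-fold and Ddx58, which encodes RIG-I, 5.25-fold lower in NPC, and Mavs, the adaptor of both RIG-I and MDA5, was 1.82-fold lower (limma adjusted p = 3.81e-11, 1.98e-10 and 8.98e-08). Among the Jak-Stat genes 3 were higher and 6 lower of 11. The kinase gene Jak2 was 4.91-fold higher in NPC, whereas the feedback inhibitor gene Socs3, a target of LIF signalling, was 5.30-fold lower and the kinase gene Tyk2 2.26-fold lower (limma adjusted p = 2.25e-10, 8.42e-11 and 5.98e-09). The ESC medium contained LIF, and its part in these differences was not tested.

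Receptors went both ways. Of 6 measured, 3 were higher and 2 lower in NPC. The type II receptor genes Ifngr1 and Ifngr2 were 2.24-fold and 1.71-fold higher, the type I receptor gene Ifnar1 was 1.47-fold higher, and the type III receptor gene Ifnlr1 was 2.2-fold lower (limma adjusted p = 1.52e-07, 5.41e-05, 4.29e-05 and 1.22e-08). The other type I receptor gene, Ifnar2, went the opposite way to Ifnar1 (1.2-fold lower, limma adjusted p = 0.00914), named after its value was seen. Its log2 difference was -0.47 in knockdown and -0.05 in control cells. Of the regulatory factors 2 were higher and 4 lower of 8. Irf2, an antagonist of Irf1 at shared sites, was 7.54-fold higher (limma adjusted p = 8.68e-11), averaging 9.34 in knockdown NPC and 9.35 in control NPC, against 6.32 in knockdown ESC and 6.54 in control ESC.

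MHC class I and antigen processing genes had 5 higher and 4 lower of 11, with H2-K1 2.31-fold, H2-D1 1.96-fold and B2m 1.72-fold higher in NPC (limma adjusted p = 3.22e-07, 5.81e-06 and 1.55e-06). Interferon-inducible GTPases had 1 higher and 5 lower of 15, and the single higher one was Gbp7 (1.38-fold, limma adjusted p = 0.000935). Among the lower ones, Gbp2 and Gbp2b differed by -2.69 and -1.84 in control cells, against -0.04 and -0.13 in knockdown cells. Both calls rest on the control ESC arrays, which entered the choice of the genes. The rest, Gbp4, Igtp and Gbp3, averaged 5.27, 5.86 and 5.39 over all arrays, at or below the lower quartiles. Gbp3 was named after its value was seen. Ligand genes had 0 higher and 4 lower of 19, Ifnab, Ifna2 and Ifna16 among them, with a lowest difference of -0.35. Ifna13 and Ifnk lay by their means below the lower quartiles of all arrays in all 4 groups. So did Ifnb1, Ifna4, Ifna6, Ifna11 and Ifna12, named after their values were seen. Ifnab lay below them in control NPC, at 5.78.

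Response elements were common in the promoters of the lists. Of the 93 measured list genes with a promoter in the RefSeq table, 40.9% held the response element core in at least 1 window and 32.3% the gamma-activated site, where 3.99% and 9.55% of all 27025 genes with a window did. The genes of the lists are known interferon targets in part, and these shares were not tested.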

How the data were processed

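RNA from 12 samples was hybridised to mouse gene arrays of the MoGene 1.0 ST type, 1 array each, per the labels. The authors deposited log2 values; per the submitters' processing notes they used affy, RMA and limma, with versions not stated there. RMA as a method corrects background and summarises probes on a log scale, and differences near the floor are compressed. Of 21212 probe sets, 18786 had 1 symbol, 6 had several and 2420 were unnamed; all entered the fit and 18784 genes the adjustment. With R 4.3.3 and limma 3.58.1, a group-means model (lmFit, contrasts.fit, eBayes at default settings, 8 residual and 4.81 prior degrees of freedom) was fitted to the 12 arrays and tested on simulated data. The number of arrays limits the precision.

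The members and lists were chosen with earlier results of these data known. Beyond the members, the text names up to 3 genes a list with the smallest p in each tested comparison and the 4 genes most alike to Gbp2, Oasl2 and Stat2; others are marked. Alternatives were a replicate block, a low-value filter (mean of at least 5.97, 14335 genes), array weights, an intensity trend with robust prior, quantile normalization, median centring, adjustment over unnamed probe sets too, averaging where a gene had several probe sets, a fit of only the 6 NPC arrays, a threshold of 0.01 and leaving out each array. Replicate numbers come from the titles. Deviations of same-numbered knockdown and control NPC arrays correlated at -0.173, 0.192 and -0.171, so they were not taken as pairs. Between NPC and ESC they correlated at 0.122, 0.19 and -0.0336 in knockdown cells and at 0.266, 0.286 and 0.334 in control cells. The numbers thus went together in the control arm only, and the unblocked fit was kept. Blocked values are given in the text for Ifih1 and Dtx3l, whose calls they changed. Protein sequences and genome coordinates of probe sets were not used here.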

Additional observations from a re-analysis of the deposited data

Results flagged for a closer look

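In 4 genes every knockdown array lay on 1 side of the control mean in NPC and on the other side in ESC. The share of all genes that met this rule was not computed, so the count is a description and nothing is read from it. Irf1 differed by 0.27 in NPC and -0.32 in ESC, so the knockdown differences were 0.59 apart. Bst2 differed by 0.23 in NPC and -0.18 in ESC, which were 0.40 apart, and Ifih1 by 0.26 and -0.13, which were 0.39 apart. Irf9 ran the other way, with -0.23 in NPC and 0.18 in ESC, a gap of -0.41. Its NPC sign came from control NPC replicate 2, without which the NPC difference was 0.12. All group means of Ifih1 lay under the highest lower quartile of the arrays, so the sizes of its differences are rough. The gap between the states was not tested in any of these 4 genes, because the ESC difference chose the genes.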

How the results depend on the processing

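Each result was recomputed under up to 22 alternatives. None of the 8 genes passed between knockdown and control NPC in any of them, and 5 to 7 passed between NPC and ESC. The sign of the NPC knockdown difference turned for Gbp2 without knockdown NPC replicate 1 (-0.02) or control NPC replicate 1 (-0.25), for Irf9 without control NPC replicate 2 (0.12) and for Stat2 without control NPC replicate 3 (-0.05); the cause was not tested. Over all arrays left out singly, this difference ranged from -0.25 to 0.38 for Gbp2, -0.05 to 0.27 for Stat2 and -0.49 to 0.12 for Irf9. Over all genes, 194 passed in NPC, 29 in a fit of the 6 NPC arrays alone, 64 at a threshold of 0.01, and 83 to 247 without 1 array. Of the 115 list genes 4 passed, against 0 in the 6 arrays alone, 0 at a threshold of 0.01 and 0 to 4 without 1 array; these alternatives were added for the lists after seeing the data. With the replicate number as a block, 174 genes and 0 of the 8 passed in NPC, 3 list genes did (Dtx3l did not, adjusted p = 0.0654), and 10984 genes and 6 of the 8 passed between NPC and ESC. With number within shRNA as the block, 5 of the 8 passed there, without Ifih1 (0.0672). Irf7 and Ifih1 did not pass the low-value filter, and their signal near the floor limits what can be read from them.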
